A study of Homo sapiens with 9 samples.

Results

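Genes that HNT34 leukemia cells transcribed with the control shRNA, and for which almost no reads were left with either EVI1 shRNA, are described here. HNT34 is an established human acute myeloid leukemia line whose 3q26 rearrangement drives EVI1, the transcription factor encoded by the MECOM locus. The genes were chosen by their measured read counts: at least 50 reads in each of the 3 control libraries and at most 10 reads in each of the 6 EVI1 shRNA libraries. Of 16612 genes in the count table, 11703 passed the control limit and 30 passed both limits. Leaving out 12 by the form of their name (clone names, antisense and long noncoding RNAs and 1 glycophorin gene) left 18 genes. They are NLGN1, LSAMP, FAT3, NRP1, PDGFRB, GPR160, SLC8A3, TRDC, IGHV3-30, LY86, CTSG, INHBE, RGL4, GIMAP8, RBM20, BEND6, ZMAT4 and CRYBB1. The opposite rule, at most 10 reads in each control library and at least 50 in each EVI1 shRNA library, was met by 60 genes after the same names were left out.

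The study compared EVI1 loss with a control in HNT34 by RNA-seq of polyadenylated RNA. Every library came from HNT34 cells transduced with a lentiviral shRNA vector and kept under puromycin: NT carried a non-targeting shRNA, and sh#16 and sh#87 carried different shRNAs against EVI1. Each of these 3 groups had 3 libraries, numbered 1 to 3. The labels do not say whether these were separate cultures, so p-values measure only the spread between these libraries, which may be technical.

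EVI1 is a zinc finger transcription factor of blood stem cells and of the embryo, which both activates and represses its target genes. Its forced expression in leukemia keeps cells in a stem-like state and marks a group of patients with poor outcome. Several of the 18 genes are best known from other tissues, such as brain, lens, heart and liver, and others from lymphoid or myeloid blood cells.

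MECOM, the targeted gene (chr3:169083507-169663712 in GRCh38), was not itself switched off. Its counts were 13284, 11625 and 13206 in NT and 2082 to 6608 in the EVI1 shRNA libraries. The level was 505 ± 65.4 CPM (reads normalized to library size with TMM factors, mean ± SD, n = 3) in NT and 126 ± 20.4 CPM (n = 6) after knockdown, with no overlap between the groups. The log2 fold change was -2 (edgeR quasi-likelihood test, adjusted p = 9.18e-07), and a two-sided exact permutation test gave p = 0.0238, the smallest it can give with 6 and 3 libraries. MECOM was lower with sh#87 (107 CPM) than with sh#16 (144 CPM), a log2 difference of -0.43 (edgeR, adjusted p = 0.00661). By the way they were chosen, the 18 genes fell further than the targeted gene. Their level after knockdown was 0.193% to 9.39% of NT, with a median of 1.64%.

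Library totals ran from 17096170 to 43502389 counts, and sh#16 replicate 2 was the deepest. A count of 3 in a library corresponded to 0.069 to 0.175 CPM. The share of counts from mitochondrial genes was 15.9%, 11.5% and 4.69% in the NT replicates and 2.69% to 5.97% in the EVI1 shRNA libraries, so the NT libraries differed from each other in this respect. Blood and myeloid markers were present: PTPRC at 855 ± 37.2 CPM, CD34 at 731 ± 55.3, KIT at 85.9 ± 1.6, SPI1 at 75.7 ± 12.1 and CD33 at 42.7 ± 2.35 CPM in NT (SD, n = 3). After knockdown PTPRC (121 CPM, log2 fold change -2.82), CD34 (79.3 CPM, -3.20) and SPI1 (14.3 CPM, -2.40) were called lower (edgeR, adjusted p = 1.9e-07, 3.31e-05 and 1.71e-05). KIT (-1.47) and CD33 (-0.22) were not called. PTPRC, CD34 and SPI1 thus moved in the same direction as the 18 genes, KIT did so by less, and CD33 changed little. The part of these markers in the loss was not tested. MPO, a further myeloid marker that was looked for, was not among the genes with deposited counts.

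RefSeq promoter windows (GRCh38.p14, 250 bases before to 50 after a transcript start) were found for 12 of the 18 genes, 14 windows in all. To show how unlike the start sites are, the 250 bases before the start are printed for NLGN1 (chr3:173395702-173395951, plus strand), BEND6 (chr6:56954857-56955106, plus strand), RGL4 (chr22:23690763-23691012, plus strand) and CTSG (chr14:24576251-24576500, minus strand). Capitals mark CpG dinucleotides, the sites of DNA methylation.
NLGN1: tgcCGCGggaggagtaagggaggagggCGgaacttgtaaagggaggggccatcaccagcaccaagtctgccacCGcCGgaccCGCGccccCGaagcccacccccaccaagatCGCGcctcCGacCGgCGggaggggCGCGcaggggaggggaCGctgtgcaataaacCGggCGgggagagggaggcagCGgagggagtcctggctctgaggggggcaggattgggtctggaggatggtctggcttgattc
BEND6: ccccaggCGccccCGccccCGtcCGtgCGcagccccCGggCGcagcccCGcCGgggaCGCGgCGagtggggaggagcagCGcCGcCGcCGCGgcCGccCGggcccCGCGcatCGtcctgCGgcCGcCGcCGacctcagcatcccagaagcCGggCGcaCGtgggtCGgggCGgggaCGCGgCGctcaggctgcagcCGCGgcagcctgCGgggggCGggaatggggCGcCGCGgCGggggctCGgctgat
RGL4: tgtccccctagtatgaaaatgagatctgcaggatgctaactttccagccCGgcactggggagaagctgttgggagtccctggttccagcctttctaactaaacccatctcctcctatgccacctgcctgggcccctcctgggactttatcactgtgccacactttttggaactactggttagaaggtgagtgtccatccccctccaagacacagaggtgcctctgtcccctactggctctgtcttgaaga
CTSG: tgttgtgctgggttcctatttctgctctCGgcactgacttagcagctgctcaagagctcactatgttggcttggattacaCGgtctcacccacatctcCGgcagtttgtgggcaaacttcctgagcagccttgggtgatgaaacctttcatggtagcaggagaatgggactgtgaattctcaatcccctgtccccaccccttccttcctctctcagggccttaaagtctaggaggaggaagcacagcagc

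These stretches held 19 CpG sites at NLGN1, 43 at BEND6, 1 at RGL4 and 3 at CTSG. Over the whole windows, the median was 9.5 CpG sites for the 14 windows of the switched-off genes and 25 for the 14862 windows of all genes tested. Median GC content was 62% against 64.7%. The switched-off genes ranged from 49.7% (LY86, GIMAP8 and a window of SLC8A3) to 83% (BEND6). CpG sites ranged from 3 (LY86, CTSG, RGL4 and CRYBB1) to 51 (BEND6), so the set held both CpG-poor and CpG-rich starts.

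Both strands of each window were searched for the GATA-like motif AGATAA, for GACAAGATA and GAAGATGAG, which stand for the binding sequences of the EVI1 zinc finger domains, and for TGACGTCA, CACGTG and TATAAA. The 3 EVI1-like and GATA-like motifs were in none of the 14 windows. Over all 14862 windows they were in 5.76%, 0.0269% and 0.316%. TGACGTCA was also in none, against 2.84% of all windows. CACGTG was in the BEND6 window only (7.14%, against 9.27%) and TATAAA in the CRYBB1 window only (7.14%, against 6.39%). The letters were looked for in these windows only, and distal elements were not searched.

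All 18 genes were tested and called lower by the fit across all genes (edgeR, log2 fold change of -2 or less and adjusted p of 0.01 or less), which the choice of the genes fixes. Of 16312 genes tested, 923 (5.66%) were called lower and 1588 (9.74%) higher. By the place of their products, 12 of the 18 encode proteins of the cell surface, secreted proteins or a granule protease, and 6 encode proteins that stay inside the cell.

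**Figure D1:**
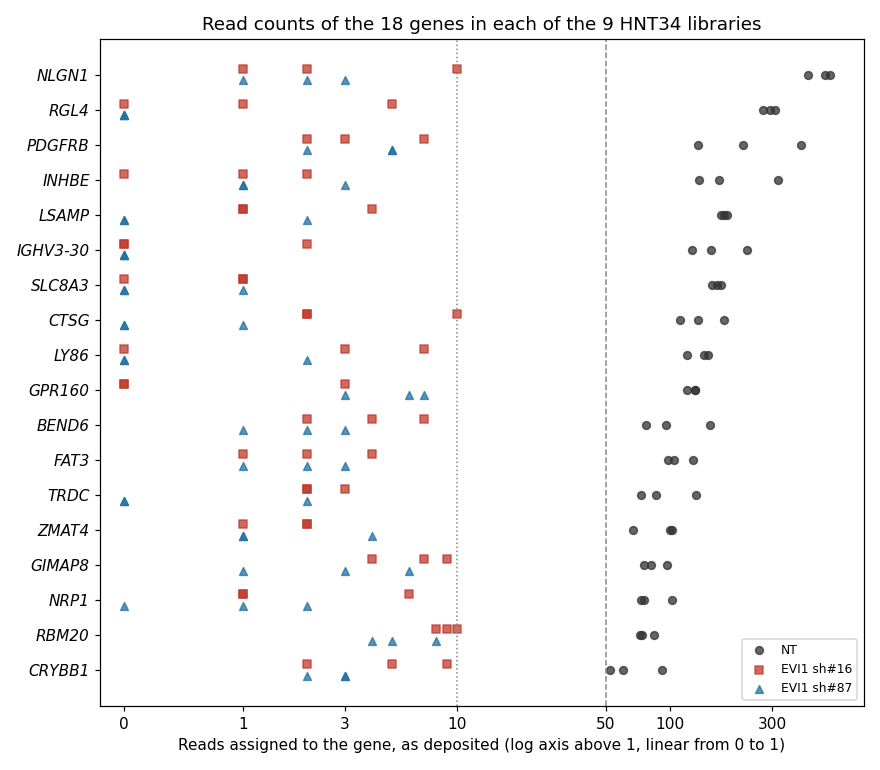
Deposited read counts of the 18 genes in each of the 9 libraries, with genes ordered by their mean NT level and the 2 limits of the rule drawn at 10 and 50 reads. All NT points lie at 52 reads or more and all EVI1 shRNA points at 10 or fewer, and sh#16 replicate 2, the deepest library, holds the highest knockdown count of 14 genes.

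Adhesion molecules were among the genes and include the one with the highest count of the set. NLGN1 (neuroligin-1, a postsynaptic adhesion protein that binds neurexins) had 560, 439 and 527 reads in NT. It had 2, 10 and 1 with sh#16 and 3, 2 and 1 with sh#87, and its level went from 20.2 ± 3.41 to 0.103 ± 0.0617 CPM. The rule fixes that no EVI1 shRNA library came near any NT library. LSAMP, a lipid-anchored immunoglobulin-like adhesion protein of neurons, had 178, 184 and 172 reads in NT. It had 1, 4 and 1 with sh#16 and 0, 0 and 2 with sh#87. FAT3, a giant atypical cadherin, had 104, 97 and 127 reads in NT, then 4, 2 and 1 with sh#16 and 3, 1 and 2 with sh#87. FAT3 was among the steadiest of the set in NT, at 4.3 ± 0.146 CPM. These 3 genes are long: NLGN1 spans 898 kb (chr3:173395952-174294372), FAT3 672 kb (chr11:92224818-92896473) and LSAMP 643 kb (chr3:115802374-116445487).

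Receptors for growth factors and other ligands were switched off. PDGFRB (chr5:150113839-150155845), the beta receptor tyrosine kinase for platelet-derived growth factor, had 134, 219 and 410 reads in NT. It had 2, 7 and 3 with sh#16 and 5, 5 and 2 with sh#87. The NT libraries themselves differed 2.37-fold in CPM, so the NT level of PDGFRB, 9.64 ± 3.96 CPM, was among the least certain of the set. NRP1 (chr10:33177493-33334667, neuropilin-1, a co-receptor for class 3 semaphorins and for vascular endothelial growth factor) had 75, 73 and 102 reads in NT. It had 1, 6 and 1 with sh#16 and 2, 1 and 0 with sh#87, and NT libraries agreed closely at 3.26 ± 0.124 CPM. GPR160, an orphan G protein-coupled receptor, had 130, 130 and 119 reads in NT. It had 0, 3 and 0 with sh#16 and 6, 3 and 7 with sh#87. It was the clearest case of more residue with sh#87: 16 reads in all, against 3 with sh#16.

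The plasma membrane transporter of the set was SLC8A3 (chr14:70044215-70189405), a sodium/calcium exchanger best known from muscle and brain. It had 156, 165 and 173 reads in NT. No EVI1 shRNA library had more than 1 read, and 3 of 6 had 0, which put it at 0.298% of NT (95% exact counting interval 0.0612% to 0.876%). Such intervals cover counting error only. Gene positions are RefSeq positions on GRCh38, the build of the counts.

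A pair of antigen receptor segments belonged to the set. TRDC (chr14:22462932-22466577), the constant region of the T cell receptor delta chain, had 73, 86 and 131 reads in NT. It had 2, 3 and 2 with sh#16 and 0, 2 and 0 with sh#87. IGHV3-30 (chr14:106335080-106335533), a variable segment of the immunoglobulin heavy chain, had 126, 155 and 227 reads in NT. Of the 6 EVI1 shRNA libraries only sh#16 replicate 2 had any reads, and it had 2. With sh#87 the gene was at least 147-fold lower than in NT, taking 3 reads over the group as the limit of a count of 0. Near-identical copies of IGHV3 segments share reads, so the assignment to this segment is uncertain.

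The secreted and granule proteins were CTSG, LY86 and INHBE. CTSG (chr14:24573518-24576250, cathepsin G, a serine protease of myeloid azurophil granules) had 111, 135 and 179 reads in NT. It had 2, 10 and 2 with sh#16 and 1, 0 and 0 with sh#87, so that 14 of its 15 residual reads were in sh#16 libraries. LY86 (chr6:6588720-6654982, MD-1, the secreted partner of the B cell and myeloid receptor CD180) had 144, 120 and 150 reads in NT, then 3, 7 and 0 with sh#16 and 0, 0 and 2 with sh#87. INHBE (chr12:57455307-57458025), the beta E subunit of activin and inhibin, a hormone known from liver, had 136, 168 and 319 reads in NT. It had 1, 2 and 0 with sh#16 and 3, 1 and 1 with sh#87. INHBE, like PDGFRB, was highest in NT replicate 3.

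RGL4 and GIMAP8 act in small GTPase signaling or belong to a GTPase family. RGL4 (chr22:23691013-23699168), an exchange factor of the Ral family, had 272, 308 and 291 reads in NT. It had 0, 5 and 1 with sh#16 and 0 in all 3 sh#87 libraries, where it was at least 251-fold lower on the same limit. Among genes of the set this was the second highest NT level, at 11.6 ± 1.82 CPM. GIMAP8 (chr7:150450630-150479393), a GTPase of immunity-associated protein, had 75, 81 and 96 reads in NT. It had 7, 9 and 4 with sh#16 and 6, 1 and 3 with sh#87, so 5.84% of NT (3.86% to 8.55%) was left.

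The others with products inside the cell were RBM20, BEND6, ZMAT4 and CRYBB1. RBM20 (chr10:110643245-110839468), a splicing regulator known from heart muscle, had 74, 72 and 84 reads in NT. It kept the most of its level, with 8, 10 and 9 reads with sh#16 and 5, 4 and 8 with sh#87, or 9.39% of NT (6.64% to 13%). BEND6 (chr6:56955107-57027346), a BEN domain corepressor of Notch target genes in neural cells, had 153, 95 and 77 reads in NT, then 4, 7 and 2 with sh#16 and 2, 1 and 3 with sh#87. ZMAT4 (chr8:40530590-40897826), a matrin-type zinc finger protein, had 99, 67 and 102 reads in NT, then 2, 1 and 2 with sh#16 and 4, 1 and 1 with sh#87. CRYBB1 (chr22:26599278-26618027), a beta-crystallin of the eye lens, had 52, 60 and 91 reads in NT and was the nearest to the lower limit. It had 2, 9 and 5 with sh#16 and 3, 3 and 2 with sh#87.

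**Figure D2:**
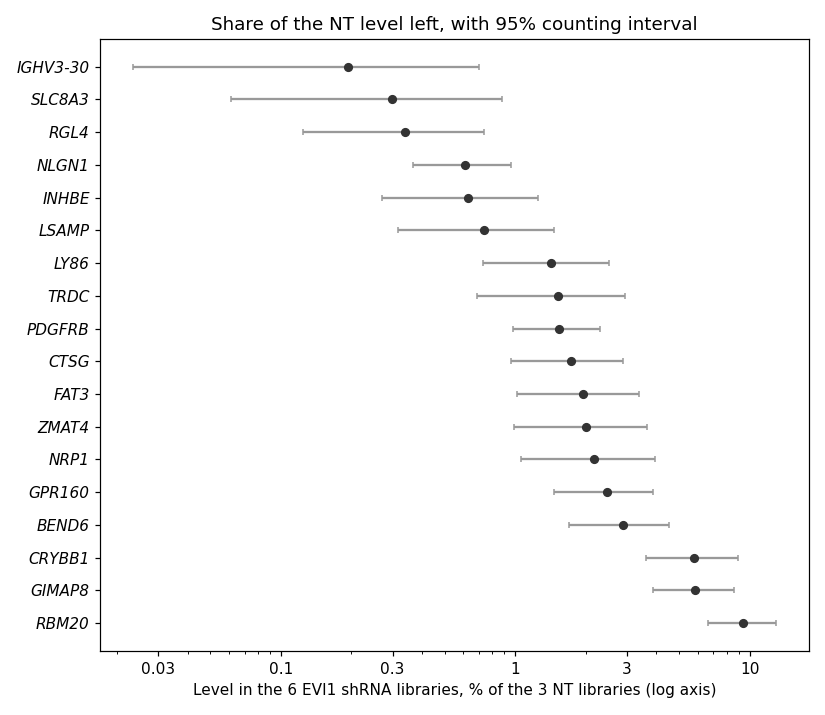
Level of each gene in the 6 EVI1 shRNA libraries as a percentage of the 3 NT libraries, from summed reads over summed effective library sizes, on a log axis with 95% exact counting intervals. The points run from 0.193% (IGHV3-30) to 9.39% (RBM20), and the 3 genes with most left are RBM20, GIMAP8 and CRYBB1.

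Of the 108 values of the 18 genes in the 6 EVI1 shRNA libraries, 25 were 0. Reads were seen in all 6 libraries for 8 genes (BEND6, CRYBB1, FAT3, GIMAP8, NLGN1, PDGFRB, RBM20 and ZMAT4). The summed level of the 18 genes was 113 to 115 CPM in the NT libraries, 1.65 to 2.12 CPM with sh#16 and 1.12 to 1.79 CPM with sh#87. By gene, the mean residual CPM was higher with sh#16 for 13 genes and higher with sh#87 for 5. The rule capped both shRNAs, and the highest count of 14 genes was in the deepest library, sh#16 replicate 2, so this is a description only. In such bulk RNA, fewer cells that transcribe a gene and less RNA in each cell cannot be told apart.

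The NT libraries varied in opposite ways among the genes. PDGFRB stood at 5.76, 9.49 and 13.7 CPM in replicates 1, 2 and 3, and INHBE at 5.85, 7.28 and 10.6 CPM. BEND6 ran the other way, at 6.58, 4.12 and 2.57 CPM. Replicate 3, with the highest PDGFRB and the lowest BEND6, had the lowest mitochondrial share (4.69%), and the part of that share in these differences was not tested. The coefficient of variation among NT libraries had a median of 16.1% over the 18 genes and 17.4% over all genes tested. It was 45.7% for BEND6, 41.1% for PDGFRB and 31% for INHBE, and 3.4% for FAT3, 3.79% for NRP1, 5.19% for GIMAP8 and 6.73% for RBM20. None of the 3 NT libraries stood above the others for the set, being highest for 6, 5 and 7 genes.

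**Figure D3:**
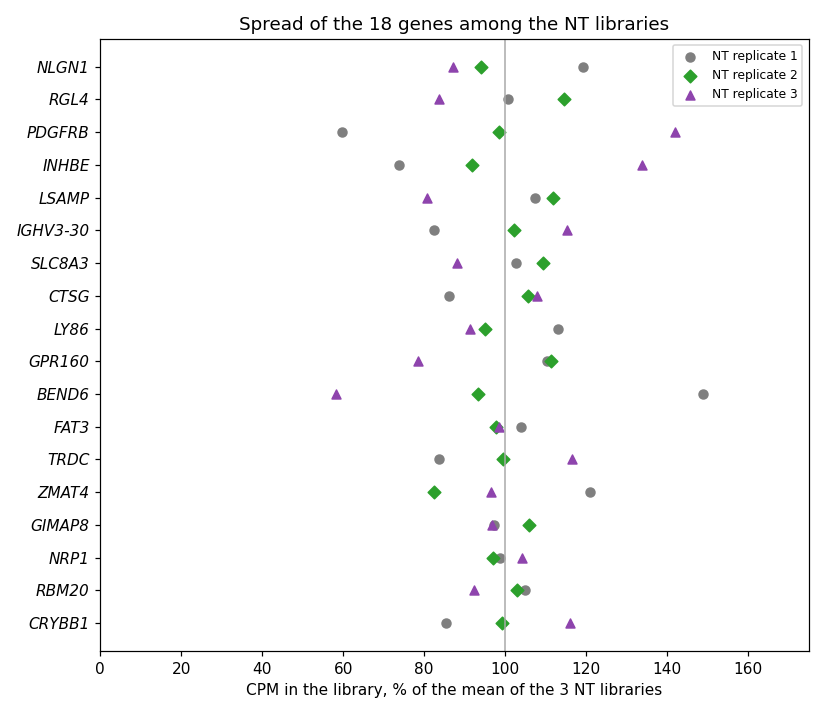
CPM of each gene in each NT library as a percentage of its mean over the 3 NT libraries. PDGFRB and INHBE are highest in NT replicate 3 and BEND6 in NT replicate 1, and FAT3, NRP1 and GIMAP8 stay close to their means.

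In NT the genes were transcribed at a low level. Their mean was 2.62 to 20.2 CPM with a median of 5.26 CPM, against a median of 17.2 CPM over all genes tested. The rule itself favors low levels, because its cap on reads after knockdown let an abundant gene pass only after a very large fall. IGHM and BANK1, for example, were called lower but kept too many reads to pass. The difference from all genes tested therefore cannot be read as a trait of the genes apart from the rule. Per kb of transcript (Ensembl canonical transcripts of GENCODE), the level in NT was highest for IGHV3-30 at 15.2 CPM per kb, followed by LY86 at 6.36 and CTSG at 6.05. It was lowest for FAT3 at 0.221 CPM per kb, RBM20 at 0.416 and NRP1 at 0.579. On this scale NLGN1, first by CPM, stood at 1.25 CPM per kb, since its transcript is 16241 bases long. The genes spanned a median of 56.8 kb of the genome, against 24.9 kb for the other genes tested with a RefSeq position. Spans of 100 kb or more were held by 7 of 18 (38.9%), against 15.1% of the others. Chromosome 14 held 4 of the 18 (22.2%, against 3.2% of the tested genes with a RefSeq position), namely CTSG, SLC8A3, TRDC and IGHV3-30, and the last 2 are antigen receptor segments.

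GPR160, NLGN1 and LSAMP lie on chromosome 3, as MECOM does (16.7% of the set, against 5.61% of the genes tested that have a RefSeq position). LSAMP is far from MECOM. GPR160 (chr3:170037995-170085392) starts 374 kb past the highest coordinate of MECOM, whichever end of the gene that is, and NLGN1 3.73 Mb past it. These distances and the order of genes are those of the reference genome. HNT34 carries a 3q26 rearrangement, so they may differ on its rearranged chromosome. None of the 5 genes tested between MECOM and GPR160 was called. Their log2 fold changes were 0.84 for TERC, -0.84 for ACTRT3, -0.82 for MYNN, -1.94 for LRRC34 and -1.09 for SEC62. PHC3, which begins 2.19 kb after GPR160, had a log2 fold change of -0.59, from 158 to 105 CPM. GPR160 thus lay between SEC62 and PHC3, which were lower (edgeR, adjusted p = 3.56e-05 and 0.0033) but by less than a call needs. The same held for LRRC34 and MYNN (adjusted p = 1.66e-05 and 0.000104), but not for TERC and ACTRT3 (0.375 and 0.114).

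The nearest tested gene on each side of each of the 18 genes gave 36 neighbors. Of these, 6 (16.7%, against 5.66% of all genes tested) were called lower and 3 (8.33%, against 9.74%) higher. They included DST next to BEND6, GIMAP7 35.5 kb from GIMAP8, IDO1 602 kb from ZMAT4, and the noncoding LINC02306, 1257 kb from CTSG. IGHV3-15 and IGHV3-32 lay 181 kb and 20.6 kb from IGHV3-30, on its sides. GIMAP7, IGHV3-15 and IGHV3-32 also share a symbol stem with their gene and are counted again among the relatives below. DST, which encodes a cytoskeletal linker, starts 277 bases from BEND6 and had 42, 35 and 48 reads in NT and 3 to 8 after knockdown (log2 fold change -3.21). IDO1, the tryptophan-degrading dioxygenase, had 28 to 36 reads in NT and 0 to 4 after knockdown.

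The 3 neighbors called higher were CRYBA4, INHBC and GLI1. CRYBA4, a beta-crystallin gene that overlaps CRYBB1, had 2, 1 and 2 reads in NT and 9 to 70 after knockdown. INHBC, the activin beta C gene 3.25 kb from INHBE, had 5 reads in all in NT and 101 after knockdown, a 9.91-fold higher level (4.11 to 31.2, 95% exact counting interval). GLI1, the transcription factor of Hedgehog signaling on the other side of INHBE at 1.76 kb, had 17, 26 and 48 reads in NT and 134 to 379 after knockdown (log2 fold change 2.86). Neighbors on both sides of INHBE therefore gained reads while INHBE lost them. Neither of the other genes that overlap one of the set was called. LY86-AS1 had a log2 fold change of 0.10 with sh#16 and -0.64 with sh#87 (edgeR, adjusted p = 0.602 and 0.00568). GUSBP11, which overlaps RGL4, had 0.55 with sh#16 and 1.14 with sh#87 (edgeR, adjusted p = 0.00954 and 0.000109). The kit preserved strand, but whether strand was used in counting is not given in the sources used here, so reads of overlapping genes could be shared.

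Relatives by symbol (the same stem followed by any other digits or letters, so that GPRIN1 and RBMX count with GPR and RBM) were compared with the same fit. Over all families 100 other genes were tested: 13 (13%, against 5.66% of all genes) were called lower and 18 (18%, against 9.74%) higher. Their median log2 fold change was -0.08, against 0.05 over all genes tested. The GPR symbols gave 19 of these 31 calls, 13 of the 18 higher and 6 of the 13 lower, so most higher calls share only a symbol stem with GPR160. Among the other families some relatives went the opposite way to the gene of the set and others the same way.

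SLC8A2, the sodium/calcium exchanger related to SLC8A3, had 5, 1 and 1 reads in NT. It had 211 to 460 with sh#16 and 129 to 168 with sh#87, a log2 fold change of 6.47 (edgeR, adjusted p = 9.99e-07). As SLC8A3 went from 6.54 to 0.0212 CPM, SLC8A2 went from 0.0972 to 8.64 CPM, so that of this pair SLC8A3 had nearly all the reads in NT and SLC8A2 nearly all after knockdown. Of the 10 sodium and calcium exchangers and calcium pumps tested besides SLC8A3, SLC8A2 was the 1 that was called.

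NLGN2, another neuroligin, had 409, 578 and 900 reads in NT and 1411 to 3700 after knockdown (log2 fold change 2.08, edgeR adjusted p = 4.53e-05). NLGN3 had a log2 fold change of 0.03. NRXN2, a neurexin, was higher after knockdown by 3.19 on the log2 scale, from 0.925 to 8.55 CPM. The 12 synaptic organizers tested besides NLGN1 gave 1 lower call (8.33%, against 5.66% of all genes) and 2 higher calls (16.7%, against 9.74%). NEGR1, of the same adhesion family as LSAMP, had 0, 0 and 1 reads in NT and 8 to 52 after knockdown, 63.3-fold higher with a counting interval of 11.2 to 2519. FAT1, a relative of FAT3, had 0, 1 and 0 reads in NT and 16 to 29 after knockdown, 58.9-fold higher (10.4 to 2344). FAT4, a further relative, had a log2 fold change of -0.98 and was not called.

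The Ral family gave a like contrast. RGL1, an exchange factor related to RGL4, had 24, 14 and 12 reads in NT and 92 to 218 after knockdown (log2 fold change 3.23, adjusted p = 2.44e-05). The GTPases themselves were not called: the log2 fold change was -0.01 for RALA and -0.49 for RALB. Of the 12 genes of the Ral list besides RGL4, 3 (25%, against 9.74% of all genes) were called higher. Among the activin genes INHBA, at 61 to 69 reads in NT and 3 to 11 after knockdown, was called lower (log2 fold change -3.37), and ACVR1C, an activin type I receptor, was called higher from 4 reads in all in NT to 241.

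GIMAP genes lie together on chromosome 7 and moved in both directions. GIMAP7 fell by 4.49 on the log2 scale, from 9.13 ± 3.9 to 0.404 ± 0.0967 CPM (edgeR, adjusted p = 6.08e-07). GIMAP2 fell by 3.53, from 30.4 to 2.61 CPM, and GIMAP1, the third that was called lower, by 2.21. GIMAP4 rose by 4.47, from 5, 0 and 5 reads in NT to 33 to 197 (adjusted p = 0.000239). GIMAP6, the most abundant at 68 CPM in NT, had a log2 fold change of -1.48 and was not called.

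Of the GPR symbols, 39 were tested, with 6 called lower (15.4%, against 5.66% of all genes) and 13 higher (33.3%, against 9.74%). The largest changes by log2 fold change were in GPR153 (3 reads in all in NT and 642 after knockdown, 105-fold higher with a counting interval of 35.8 to 510), GPR183 (16, 13 and 23 reads in NT, 1 read in all after knockdown) and GPRIN1 (log2 fold change 4.46). Only the symbol joins these genes to GPR160. Of 39 RBM genes tested, RBM43 alone was called, at -3.15. ZMAT1 was the single call among 4 ZMAT genes, at -2.24. The BEND and NRP relatives were not called: BEND3 stood at -1.51, BEND5 at -1.28 and NRP2 at -0.82.

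**Figure D4:**
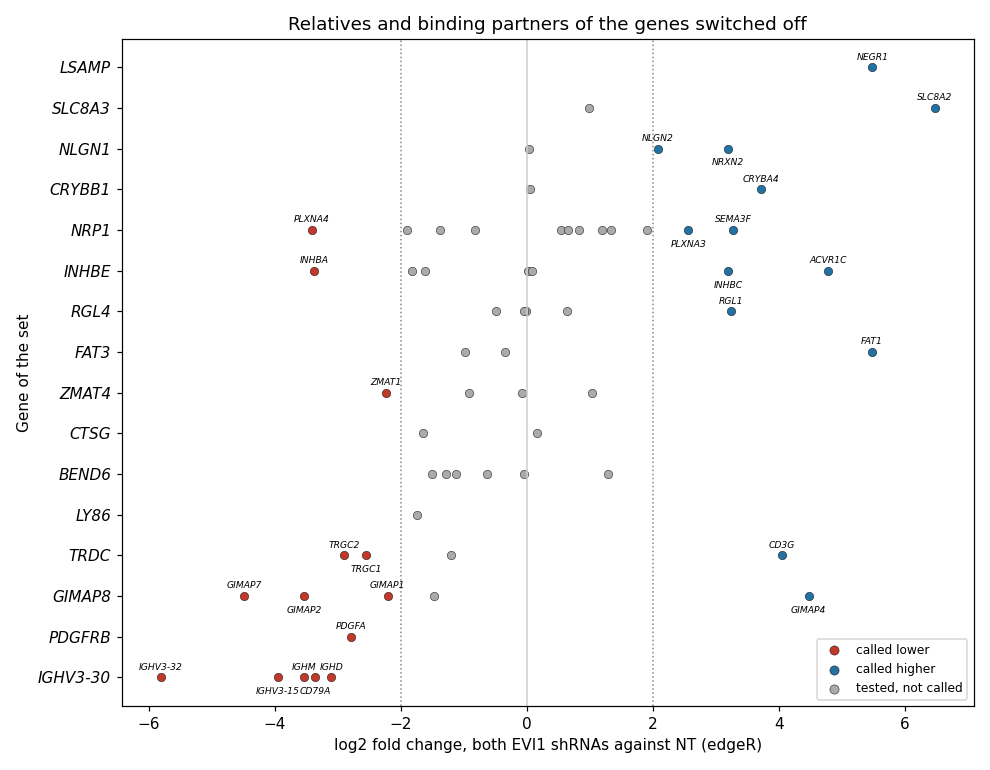
log2 fold change (both EVI1 shRNAs against NT) of tested relatives by symbol and of known partners, 1 row for each gene of the set, with calls in color and dotted lines at -2 and 2. The GPR and RBM relatives are left out for their number, and SLC8A2, FAT1, NEGR1, NLGN2, RGL1, CRYBA4 and GIMAP4 lie to the right of 2.

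Known partners of the gene products, together with some of their relatives, were read from a list drawn up after the genes were known, so their count is a description. Some genes of this list, such as GIMAP7, ZMAT1, FAT1 and SLC8A2, were also counted among the relatives by symbol. Of 57 tested, 13 (22.8%, against 5.66% of all genes) were called lower and 12 (21.1%, against 9.74%) higher, with a median log2 fold change of -0.08. PDGFA, a ligand chain of the PDGF receptors, was lower together with PDGFRB: 682, 697 and 886 reads in NT and 56 to 240 after knockdown (log2 fold change -2.79). PLXNA4, a plexin that signals with neuropilins, fell from 155 to 14.6 CPM as NRP1 was lost (log2 fold change -3.41). PLXNA3 (2.56) and the ligand SEMA3F (3.27) were called higher. Of 43 symbols with the prefixes of semaphorin, plexin, netrin, slit and ephrin genes and their receptors, NRP1 left out, 3 (6.98%, against 5.66% of all genes) were called lower and 11 (25.6%, against 9.74%) higher.

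CD180, the receptor that LY86 binds, had 75, 74 and 94 reads in NT and 10 to 44 after knockdown, a log2 fold change of -1.74 that was not called. RYR2, the calcium release channel whose transcript RBM20 splices in heart, had 32 to 44 reads in NT and 1 to 7 after knockdown (log2 fold change -3.03). SERPINB1, an inhibitor of cathepsin G, stood at -1.64, and CTSC, the protease that activates granule proteases, at 0.16.

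IGHV3-30 and TRDC stood beside other antigen receptor genes that fell. IGHM, the immunoglobulin mu constant region, had 8063, 8897 and 10849 reads in NT and 402 to 1970 after knockdown (log2 fold change -3.53, adjusted p = 1.33e-06). IGHD (-3.10) and the B cell receptor component CD79A (-3.36) were lower too. Of the 4 immunoglobulin variable segments tested besides IGHV3-30, 3 were called lower. The exception was IGLV5-52, which rose from 5 reads in all in NT to 146. TRGC1 (-2.55) and TRGC2 (-2.90), constant regions of the gamma chain that pairs with delta, were called lower. Of 11 T cell receptor variable segments 7 were called higher, 6 of them gamma segments of the TRGV group. These 7 were near the floor, with 0 to 6 reads in each NT library and means of 0.402 to 1.39 CPM after knockdown. TRGC1 went from 30.8 to 5.23 CPM. Constant segments and these variable segments of the gamma locus thus moved in opposite directions.

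Marker lists of other cell types are given beside these. Over all genes tested, 5.66% were called lower and 9.74% higher. Of 12 B cell markers tested, 8 (66.7%) were called lower and 2 (16.7%) higher. Of 11 T and NK cell markers besides TRDC, 3 (27.3%) were lower (LCK, TRBC2 and NCR1) and 1 (9.09%) higher (CD3G, which had 0, 0 and 4 reads in NT). Of 6 endothelial and stromal markers besides PDGFRB, 4 (66.7%) were lower, namely CDH5, PECAM1, VWF and ACTA2, and COL1A1 was higher. The granulocyte markers tested besides CTSG, GFI1 and MMP9, were not called. Monocyte markers gave 1 lower call of 7 (14.3%), CSF1R, and none higher. Yet the median log2 fold change of these 7 was 1.02, against 0.05 over all genes tested, so CSF1R did not stand for its list. The part of the markers of these lists in the loss of the 18 genes was not tested.

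The other lists gave these counts, to be read against the same 5.66% lower and 9.74% higher. Stem and progenitor genes were lower in 4 of 17 (23.5%), and reported EVI1 targets lower in 3 of 13 (23.1%) and higher in 1 (7.69%). Megakaryocyte markers were lower in 3 of 9 (33.3%) and higher in 1 (11.1%), and erythroid markers lower in 2 of 7 (28.6%) and higher in 1 (14.3%). The 6 mast cell, basophil and eosinophil markers had a median log2 fold change of -1.13, without a call. Symbols with cadherin prefixes were lower in 6 of 22 (27.3%) and higher in 1 (4.55%), and those with the prefix CLEC, most of them C-type lectins, lower in 5 of 11 (45.5%) and higher in 1 (9.09%). Symbols with the prefixes of cation channel genes (KCN, SCN, CACN, HCN and TRP) were lower in 4 of 45 (8.89%) and higher in 14 (31.1%). The prefixes also take in genes that are not channels, such as TRPS1, TRPT1 and the noncoding KCNQ1OT1, which is 1 of the 14. Of the symbols with prefixes of glutamate, GABA and glycine receptors, GRIN3B was called higher, and glutaredoxins (GLRX) share the prefix of the last. Of 12 tetraspanin symbols 1 (8.33%) was called higher.

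Genes just outside the limits show how the rule cut the data. CRYBB1, with a lowest NT count of 52, was the closest inside, and CTSG, NLGN1 and RBM20 reached 10 reads in a knockdown library. Just under the NT limit, with 45 to 49 reads as their lowest count, were CUX2, IQSEC3, MFSD6 and TLX1. Just over the knockdown limit, with 11 or 12 reads as their highest, were genes that included FUT4, GP6, HAGLR, INHBA, NME8, NOD2, PRSS2, SMIM35, TMEM64 and TTC23L. GP6, a collagen receptor of platelets, had 329, 366 and 490 reads in NT and 2 to 11 after knockdown, and by mean NT count it stood above every gene of the set but NLGN1.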

How the data were processed

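RNA-seq of HNT34 cells gave 9 libraries from a stranded polyadenylated RNA kit. The authors deposited one table of estimated counts per gene symbol (expected counts, all of them whole). Its column names point to salmon, but the study's methods describe counting by STAR on GRCh38 with ENSEMBL genes, so the counter is uncertain. The submitters' processing notes name FastQC 1.3 and STAR. Groups came from sample titles. Another label field gives the sh#87 libraries the number 18.

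Counts were tested as deposited with edgeR 4.0.16 (TMM, filterByExpr, quasi-likelihood test, Benjamini-Hochberg) in R 4.3.3, over 16312 of 16612 genes. Calls needed an absolute log2 fold change of 2 and an adjusted p of 0.01. On simulated data with 193 tested genes changed by 3 on the log2 scale, 193 were recovered, with 0 false calls among 16312 genes. Intervals (95%) were exact and cover counting error only. Of the genes tested, 86% matched a RefSeq position (GRCh38.p14). Transcript lengths came from GENCODE v44 mapped to GRCh37.

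The members and lists were chosen with earlier results of these data known. All members were named with their counts, relatives and neighbors where called (at most 3 a family by largest absolute log2 fold change, with GIMAP1 added after its value was seen), and non-members within 5 reads of the NT limit or 2 reads of the knockdown limit. Some items that these rules name are not reported here. Same-numbered libraries did not deviate together (correlations -0.184 to 0.0989), so numbers were not used as pairs. Alternatives were RLE scaling, no filter, DESeq2 1.42.0, a replicate block, each library left out, and other limits of the count rule.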

Additional observations from a re-analysis of the deposited data

Results flagged for a closer look

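Looking at 20 values over the 6 EVI1 shRNA libraries (the CPM of each of the 18 genes, their summed CPM, and the total counts), 2 had 1 library far from the others, and chance flags about 1 in 20. For IGHV3-30 the gap of the highest library to the next was 1 of the whole range, because sh#16 replicate 2 had 2 reads and the other libraries 0. For the total counts the gap was 0.773 of the range, from sh#16 replicate 2 with 43502389 counts. The effect on MECOM differed between the shRNAs, with a log2 difference of -0.43 for sh#87 minus sh#16 (edgeR, adjusted p = 0.00661).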

How the results depend on the processing

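The number of switched-off genes depended on the limits and on depth. It was 18 as reported, 43 with at least 30 reads in NT, 10 with at least 100, 8 with at most 5 reads after knockdown, 49 with at most 20, and 30 with no name left out. Leaving out 1 library in turn gave 18 to 38 genes, the highest without sh#16 replicate 2, the deepest library. Thinning that library to the median total of the other 5, an alternative chosen after seeing the data, gave 35, and all 18 genes remained in both sets. A rule in CPM (at least 2 in NT and at most 0.4 after knockdown) gave 26 genes, 17 of them shared, and lost RBM20.

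In the fit that pools both shRNAs against NT, 876 to 1021 genes were called lower and 1390 to 1755 higher when 1 library was left out. A call with each shRNA alone was not required. With a replicate block the counts were 896 lower and 1542 higher, and with DESeq2 991 and 1677. Relatives called lower numbered 12 to 15 and called higher 18 or 19, and calls among neighbors stayed at 6 and 3, under every alternative run. The MECOM log2 fold change was -2.12 to -1.92 without 1 library, so that its call by size was lost without NT replicate 1 or any sh#87 library, while its adjusted p kept below 0.01. With at most 10 reads a library after knockdown, the residual level of each gene rests on few reads, as its counting interval shows.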
